A study of Mus musculus with 19 samples.

Results

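The transcripts of 6 genes for metabotropic glutamate receptors (Grm2, Grm3, Grm4, Grm5, Grm7 and Grm8) were examined in 19 RNA sequencing libraries from the hippocampal CA1 region of male C57B/6J mice. The 6 genes were taken by name from the 48709 genes in the count files, and all 6 were among the 19286 genes with enough reads to be tested. The libraries fell into 3 groups. Young mice of 3 months (n = 6) and old control mice of 16.5 months (n = 6) had received control oligonucleotides, and old anti-miR-mix mice of 16.5 months (n = 7) had received a mixture of inhibitors of 3 microRNAs (miR-146a-5p along with miR-148a-3p and with miR-181a-5p). In every group the oligonucleotides were packed in lipid nanoparticles and injected on both sides into the CA region of the dorsal hippocampus. Per the study's text, mice injected in this way were trained in the water maze from 5 days later. That text does not say whether the sequenced mice were among those trained. The mice were wild type and singly housed, and the tissue was not sorted by cell type. No young group that received the inhibitors was analysed here. The questions addressed were whether receptor transcripts differ between young and old CA1, and whether they differ between old mice with and without the inhibitors.

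Metabotropic glutamate receptors are G protein-coupled receptors that tune the response to glutamate over longer times than the fast ion-channel receptors. Class I receptors such as Grm5 couple to Gq, activate phospholipase C and sit mostly on the postsynaptic side, where in CA1 they can trigger long-term depression. Class II (Grm2, Grm3) and class III (Grm4, Grm6, Grm7, Grm8) receptors couple to Gi/o, lower the activity of adenylyl cyclase and, at many synapses, restrain transmitter release from the presynaptic side.

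Depth was between 26653511 and 38908947 reads assigned to genes per library. Markers of CA1 pyramidal cells (log2 of summed CPM, that is reads of the genes scaled to library size, over 5 genes) lay between 9.503 and 10.1 in all libraries, above those of CA3 pyramidal cells (5.33 to 5.90) and of dentate granule cells (6.74 to 7.73). The lists hold different genes with different levels per cell, so these sums do not give the shares of the cell types. A pair of old control libraries, replicates 5 and 6, resembled each other more than any other pair in a group. Their chi-square per degree of freedom over 12780 genes was 2.18, where counting noise alone gives about 1 and the next pair stood at 6.10. They differed by more than counting noise, which does not show whether they come from different animals, and this is not known. Both were kept as separate libraries, and each comparison was repeated with both as 1 library. The microRNAs that the inhibitors target are not measured by these messenger RNA libraries, so the treatment has no direct check here.

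The sequences that link the treatment to these genes are those of the 3 microRNAs and of the sites in the receptors' 3′ untranslated regions (3′UTRs). A microRNA pairs with a messenger RNA mainly through its seed, bases 2 to 8, shown in capitals in the mature sequences from RefSeq (GRCm38.p6).
miR-146a-5p: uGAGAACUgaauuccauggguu
miR-148a-3p: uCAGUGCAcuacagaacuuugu
miR-181a-5p: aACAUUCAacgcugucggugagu
The study's inhibitors, read from its list of oligonucleotides, are shown with the bases that pair with the seed in capitals.
inhibitor of miR-146a-5p: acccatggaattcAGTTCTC
inhibitor of miR-148a-3p: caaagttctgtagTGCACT
inhibitor of miR-181a-5p: actcaccgacagcgtTGAATG

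The word that pairs with the whole seed (AGTTCTC for miR-146a-5p, TGCACTG for miR-148a-3p, TGAATGT for miR-181a-5p, each on the transcript's strand) was searched in the longest annotated 3′UTR of each receptor, and it occurred in Grm5 and Grm2. The word is in capitals below.
Grm5, miR-146a-5p word, chr7:88133246-88133268 (GRCm38, + strand): ttttatttctttgacAGTTCTCa
Grm5, miR-181a-5p word, chr7:88131281-88131303 (+ strand): tgattcaccaaacatTGAATGTa
Grm2, miR-181a-5p word, chr9:106643552-106643574 (- strand): aatcagacatgggacTGAATGTt
Both words in Grm5 are followed by an A, opposite the first base of the microRNA, and the one in Grm2 is not. The Grm5 3′UTR spans 4038 bases, and among 3′UTRs of similar length 30.7% hold the miR-146a-5p word and 40.1% the miR-181a-5p word. The Grm2 3′UTR spans 1901 bases, and 23.0% of those of similar length hold the miR-181a-5p word. None of the 3 words occurred in the annotated 3′UTRs of Grm3 (227 bases), Grm4 (885 bases), Grm7 (1163 bases) or Grm8 (581 bases), some of which are short. In the study's lists of predicted targets, Grm5 and Grm7 are named for miR-181a-5p, and no member is named for the other two microRNAs. A match is a description of these letters and does not show that a site is used.

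Grm5 had the highest level of the receptors and Grm8 the lowest. Levels of different genes were compared as CPM per kilobase of annotated exon. Mean levels over the 19 libraries were 36.6 ± 3.9 for Grm5, 18.0 ± 1.1 for Grm3, 11.2 ± 0.93 for Grm7, 11.2 ± 2.4 for Grm2, 4.22 ± 0.76 for Grm4 and 1.91 ± 0.23 for Grm8 (SD, n = 19). Grm5 exceeded Grm3, Grm3 exceeded Grm7, Grm2 exceeded Grm4 and Grm4 exceeded Grm8 in 19 of 19 libraries. Grm7 and Grm2 did not differ beyond their spread, with Grm7 higher in 10 of 19 libraries. Grm6, a receptor of retinal bipolar cells, had between 0 and 2 reads per library, so it was not detectable above the 3 reads that a count of 0 allows and was not tested.

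**Figure D1:**
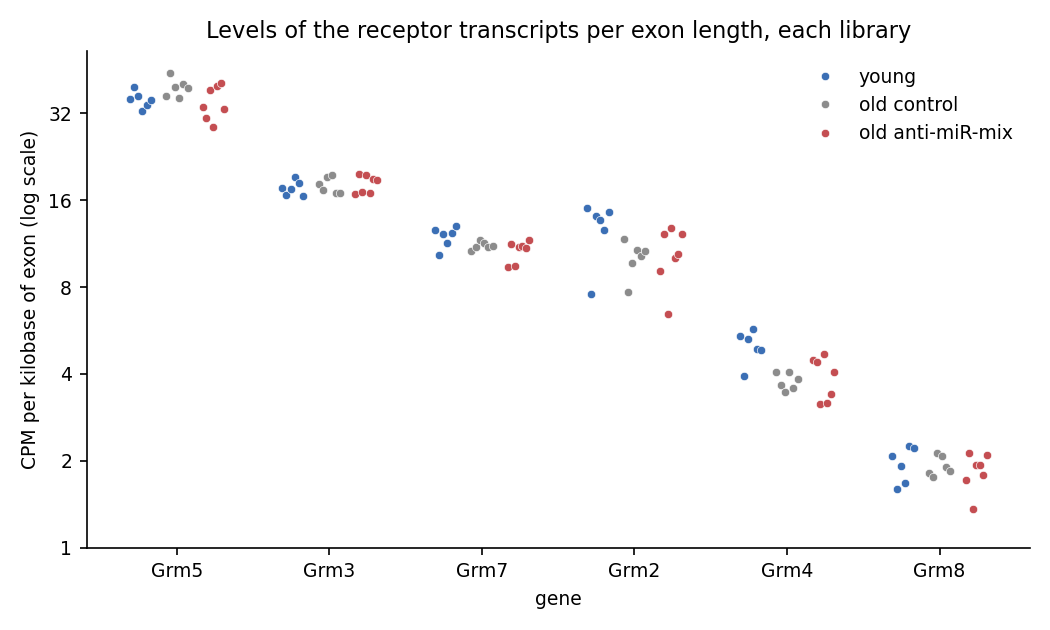
Level of each receptor transcript as CPM per kilobase of exon (vertical axis, log scale) in each of the 19 libraries, by gene and coloured by group, with 1 point per library. The level ran from a mean of 36.6 for Grm5 to 1.91 for Grm8, and the points of Grm7 and Grm2 overlap.

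Summed by class on the same per-length scale, and given as a description only, Grm5 alone made up 42.0% ± 3.9 of the 6 receptors in the 6 young libraries (mean ± SD). The share was 46.6% ± 3.1 in the 6 old controls and 43.7% ± 5.4 in the 7 treated old libraries. Class II made up 35.8% ± 2.9, 33.4% ± 2.6 and 35.8% ± 3.8 in the same order. Class III made up 22.2% ± 1.2 in young, 19.9% ± 0.55 in old control and 20.5% ± 1.7 in old anti-miR-mix libraries.

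Between old control and young CA1, 1 of the 6 receptors passed the threshold, namely Grm4, which was lower in old mice. Of all genes tested, 1.34% were called lower and 1.32% higher in this comparison (edgeR's quasi-likelihood test with Benjamini-Hochberg adjustment over 19286 genes, threshold 0.05). Grm2 was the other receptor with an unadjusted p under 0.05, against 18.1% of all genes tested. None of the 6 receptors had groups that did not overlap, against 2.54% of all genes. The median log2 fold change was -0.07 over the 6 receptors and 0.0064 over all genes. DESeq2 also called 1 receptor lower.

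**Figure D2:**
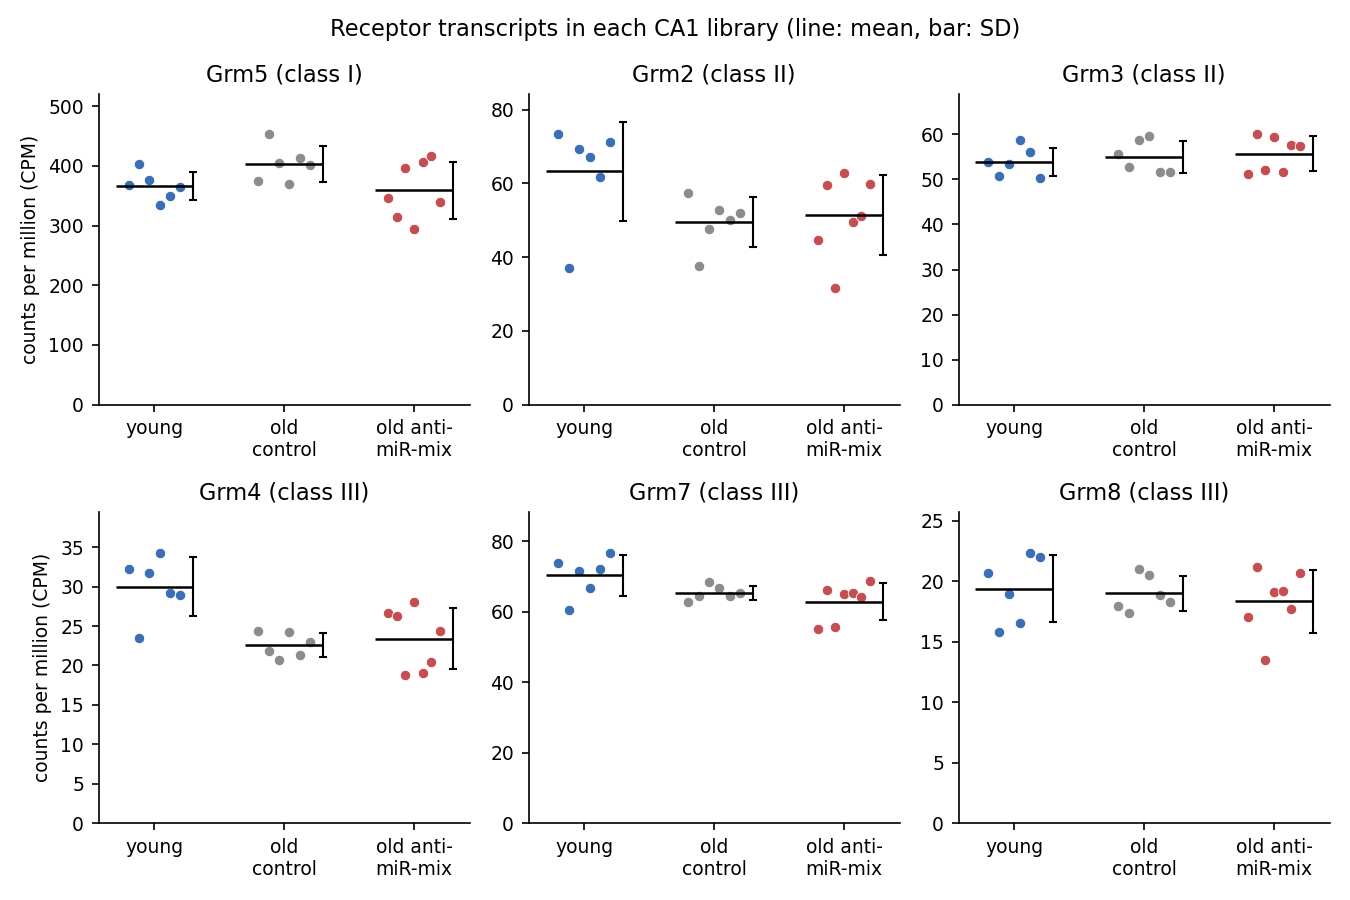
CPM of the 6 receptors (vertical axes, each starting at 0) in every library of the 3 groups, with 1 point per library, the mean as a line and the SD as a bar. Grm4 lay between 20.7 and 24.3 CPM in old control and between 23.5 and 34.3 CPM in young libraries. The lowest young point of Grm2, Grm4, Grm7 and Grm8 and the highest of Grm5 are replicate 2.

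Grm4 encodes a class III receptor of presynaptic terminals (chr17:27422387-27521403, - strand, GRCm38), and no other annotated gene shares its exons. In the 6 young libraries it had 32.3, 23.5, 31.7, 34.3, 29.2 and 28.9 CPM. In the 6 old control libraries it had 24.3, 21.9, 20.7, 24.2, 21.3 and 23.0 CPM. In the 7 old anti-miR-mix libraries it had 26.7, 26.3, 18.8, 28.1, 18.98, 20.5 and 24.3 CPM. All 6 old control libraries lay below the young median, and 4 of 6 lay below every young library. Young replicate 2 stood within the range of the old control libraries. Grm4 fell by 24.8% in old control against young mice (log2 fold change -0.41, SE 0.099, 95% interval -0.62 to -0.21, adjusted p = 0.0294 in edgeR).

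The Grm4 call stood close to the threshold. It was lost with the processing group as a factor (log2 fold change -0.42, adjusted p = 0.0513) and with old control replicates 5 and 6 as 1 library (-0.41, adjusted p = 0.0564). It was also lost when any 1 of 7 libraries was left out, with adjusted p of 0.0626, 0.0602 and 0.0873 without young replicates 1, 3 and 4, and of 0.0593, 0.0738, 0.0698 and 0.0555 without old control replicates 2, 3, 5 and 6. Over all 19 such fits the log2 fold change stayed between -0.46 and -0.36. Processing groups follow a library number of undescribed source, inferred from the deposited log2 table. Within them, the difference in mean log2 CPM was -0.48 in group 1, -0.07 in group 2 and -0.39 in group 4. Young replicate 2 is the only young library of group 2. Group 3 held no old control library. Grm4 has a GC content of 61.7%, above 98.1% of the genes with at least 100 reads on average. The tilt of each library between genes of the highest and lowest GC content ranged from -0.07 to 0.11 (log2) in young libraries. In old control libraries it ranged from -0.23 to 0.16. The part of GC content in the Grm4 result was not tested.

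Grm7 and Grm8, the other class III genes, did not pass the threshold with age. Grm7, whose product lies at the presynaptic active zone and responds only to high glutamate, had 60.7 to 76.8 CPM in young (median 71.98), 62.9 to 68.5 in old control (median 65.0) and 55.2 to 68.8 in old anti-miR-mix libraries (median 64.9). Its log2 fold change in old control against young was -0.11 (95% interval -0.22 to 0.01, adjusted p = 0.328 in edgeR), with 6 of 6 old control libraries below the young median. Grm8 had 15.8 to 22.4 CPM in young, 17.4 to 21.0 in old control and 13.5 to 21.1 in old anti-miR-mix libraries, and its 3 groups overlapped throughout. The age difference of Grm8 was -0.03 on the log2 scale (95% interval -0.23 to 0.17, adjusted p = 0.913 in edgeR). Up to 90 reads fall on a gene that shares 130 exon bases with Grm7 on the opposite strand, so a small part of the reads of Grm7 may be shared with it.

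The class II genes differed in how much they varied. Grm2, whose product is a presynaptic autoreceptor (chr9:106643095-106656082, - strand), had 73.4, 37.1, 69.3, 67.1, 61.8 and 71.1 CPM in the young libraries. It had 57.4, 37.6, 47.6, 52.8, 50.2 and 52.1 CPM in old control and 44.6, 59.6, 31.7, 62.9, 49.5, 51.2 and 59.9 CPM in old anti-miR-mix libraries. Young replicate 2 was far below the other 5 young libraries, each of which lay above all 6 old control libraries. The log2 fold change of Grm2 in old control against young was -0.35 (SE 0.15, 95% interval -0.67 to -0.03, adjusted p = 0.220 in edgeR), and without young replicate 2 it was -0.46 (adjusted p = 0.0511).

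Grm3, which is found on astrocytes as well as neurons, varied least. It had 50.3 to 58.7 CPM in young, 51.7 to 59.7 in old control and 51.1 to 60.1 in old anti-miR-mix libraries. Its log2 fold change was 0.03 in old control against young (95% interval -0.08 to 0.14) and 0.02 in old anti-miR-mix against old control (95% interval -0.09 to 0.12). On the linear scale the interval between the old groups runs from -5.90% to 8.67%.

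The class I gene had a higher mean level in the old controls than in young mice but did not pass the threshold. Grm5, the main postsynaptic receptor of the family in CA1, had 368, 404, 377, 334, 349 and 365 CPM in young libraries. It had 375, 453, 405, 370, 414 and 402 CPM in old control libraries, all 6 above the young median and 3 of 6 above every young library. In old anti-miR-mix libraries it had 346, 315, 396, 294, 407, 418 and 340 CPM, the widest range of the 3 groups. The log2 fold change with age was 0.14 (SE 0.075, 95% interval -0.02 to 0.30, adjusted p = 0.338 in edgeR).

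Between old anti-miR-mix and old control CA1, 0 of the 6 receptors passed the threshold in edgeR, and DESeq2 also called 0. Of all genes tested, 0.669% were called, all of them higher. Grm5 was the only member with an unadjusted p under 0.05, against 10.51% of all genes. The groups of all 6 receptors overlapped, against 0.498% of all genes with groups that did not. The log2 fold change of Grm5 was -0.17 (SE 0.072, 95% interval -0.32 to -0.02, adjusted p = 0.414 in edgeR), with 4 of 7 old anti-miR-mix libraries below every old control library. Within processing groups the difference in mean log2 CPM of Grm5 was -0.26 in group 1, -0.24 in group 2 and 0.03 in group 4. The lowest libraries of Grm5, old anti-miR-mix replicates 4 and 2, also had the lowest sums of the CA1 pyramidal markers (9.503 and 9.58, against 9.71 to 10.1 in the other 5 of that group). The part of these marker levels in the result was not tested.

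Between the old groups Grm4 had a log2 fold change of 0.05 (95% interval -0.15 to 0.25, adjusted p = 0.913 in edgeR). On the linear scale the interval runs from -10.01% to 18.8%. The 7 treated libraries were spread on both sides of the old control libraries, with 3 below and 4 above all 6 of them. Grm2 had a log2 fold change of 0.05 (95% interval -0.26 to 0.35), Grm7 of -0.06 (95% interval -0.17 to 0.06) and Grm8 of -0.05 (95% interval -0.25 to 0.14).

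**Figure D3:**
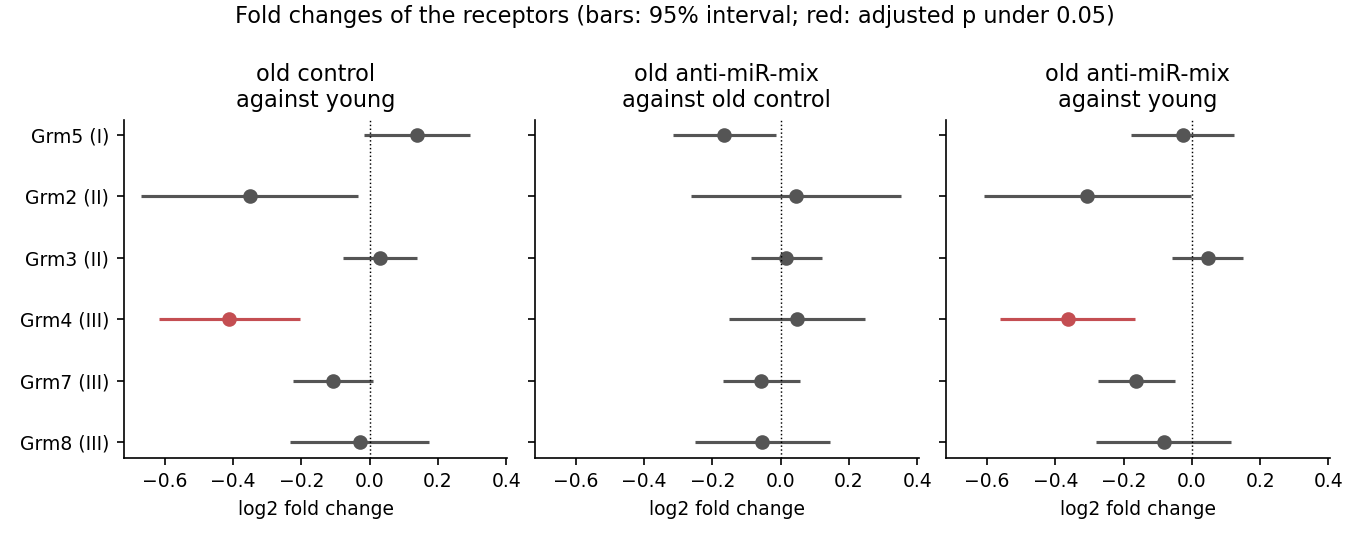
Log2 fold change of each receptor (horizontal axis) in the 3 comparisons, with the estimate as a point and its 95% interval from the edgeR fit as a bar, and with receptors whose adjusted p was under 0.05 in red. Grm4 stood at -0.41 in old control and at -0.36 in old anti-miR-mix against young mice, and no receptor is red between the old groups.

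Between old anti-miR-mix and young CA1, 1 of 6 receptors passed, again Grm4, against 1.63% of all genes called lower and 4.57% called higher. This comparison shares the young libraries with the age comparison, so it is not independent of it. Grm4 fell by 22.3% (log2 fold change -0.36, SE 0.095, 95% interval -0.56 to -0.17, adjusted p = 0.0236 in edgeR), with 7 of 7 treated libraries below the young median and 3 of 7 below every young library. The call was lost with only these groups in the fit (adjusted p = 0.0622), without young replicates 1, 3 or 4 (0.0592, 0.0531 and 0.0704) and without old anti-miR-mix replicates 3 or 5 (0.0534 and 0.0511). Within processing groups the difference in mean log2 CPM was -0.27 in group 1, 0.11 in group 2, which again rests on young replicate 2, -0.61 in group 3 and -0.51 in group 4.

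Grm7 and Grm2 also had an unadjusted p under 0.05 against young mice, where 19.6% of all genes did. The log2 fold change of Grm7 was -0.16 (SE 0.054, 95% interval -0.28 to -0.05, adjusted p = 0.0819 in edgeR), with 7 of 7 treated libraries below the young median. Without young replicate 2, Grm7 passed the threshold (adjusted p = 0.0218) and 2 receptors were called. Grm2 stood at -0.31 (95% interval -0.61 to -0.0016, adjusted p = 0.252 in edgeR), Grm8 at -0.08 (95% interval -0.28 to 0.11), Grm5 at -0.03 (95% interval -0.18 to 0.12) and Grm3 at 0.05 (95% interval -0.06 to 0.15). All 6 receptors had groups that overlapped, against 2.42% of all genes with groups that did not.

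Among libraries of the same group, some of the receptors varied together and Grm5 varied against Grm2, Grm3 and Grm4, while 8 of the 15 pairs did not pass. Log2 CPM was centred on the mean of each group, and each of the 15 pairs was tested over 19 libraries with 100000 permutations within groups. A total of 7 pairs had an adjusted p under 0.05, 4 with a positive and 3 with a negative correlation. By ranks 5 pairs passed, and the calls lost were Grm5 with Grm3 (adjusted p = 0.0518) and Grm2 with Grm8 (adjusted p = 0.105). The weakest of the 7 pairs had an absolute r of 0.597, a value that 7.31% of all pairs of well counted protein-coding genes reached or exceeded. The receptor pairs share genes and are not independent, so this is a description. Grm7 and Grm8 rose and fell together (Pearson's r = 0.865, Spearman's rho = 0.875, permutation p = 3e-05 and 1e-05, adjusted p = 0.00045 and 0.00015), the latter p being the smallest these permutations can give. Grm5 and Grm4 went in opposite directions (r = -0.839, rho = -0.796, permutation p = 0.0002 and 0.00094, adjusted p = 0.0015 and 0.00705). Without the 2 libraries farthest from the median of the first gene, r was 0.92 for Grm7 with Grm8 and -0.812 for Grm5 with Grm4. Within processing groups r was 0.883 and -0.95. A library alone in its group and processing group adds nothing to these values, so they rest on fewer libraries. Without old control replicate 6, the close match of replicate 5, r was 0.867 and -0.839.

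**Figure D4:**
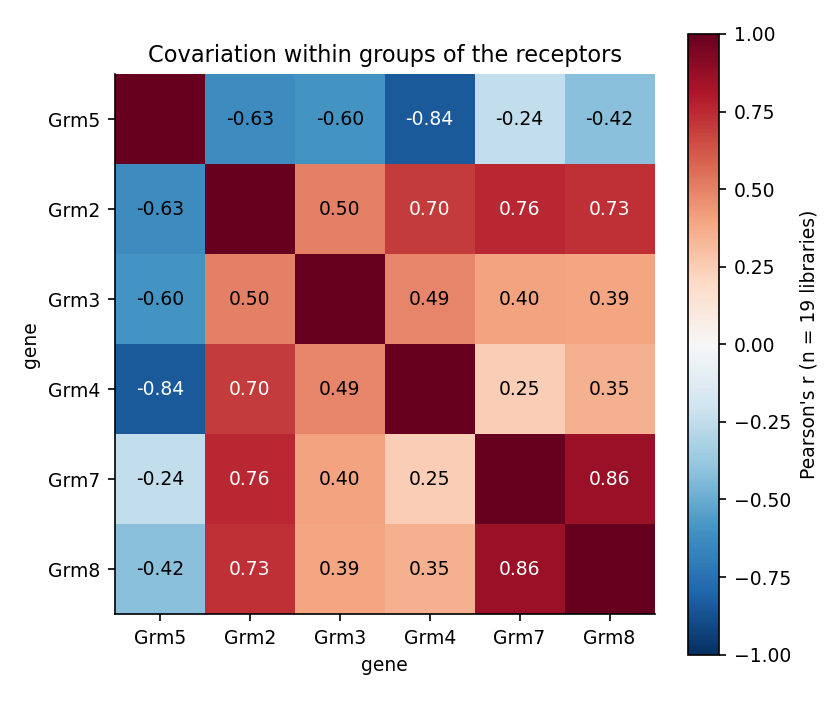
Pearson's r between each pair of receptors over 19 libraries, with log2 CPM centred on the mean of each group, from -1 in blue to 1 in red. Grm7 with Grm8 is the highest value (0.865) and Grm5 with Grm4 the lowest (-0.839).

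Grm5 also ran against Grm2 (r = -0.627, permutation p = 0.0057, adjusted p = 0.0142) and Grm3 (r = -0.597, permutation p = 0.017, adjusted p = 0.0364). Grm2 ran with Grm4 (r = 0.702, adjusted p = 0.0142 by permutation), Grm7 (r = 0.755, adjusted p = 0.0112 by permutation) and Grm8 (r = 0.731, adjusted p = 0.0102 by permutation), though without the 2 libraries farthest from the median of Grm2 these values were 0.431, 0.478 and 0.395, so they rest in part on those libraries. Grm4 did not pass with its class members Grm7 (r = 0.248) and Grm8 (r = 0.355), nor did Grm3 with Grm2, Grm4, Grm7 or Grm8 (r between 0.394 and 0.5). The CA1 pyramidal sums also varied within groups, from 9.503 to 10.1 in old anti-miR-mix libraries. In GC content Grm5 lies above 14.8% and Grm4 above 98.1% of the genes with at least 100 reads on average. The part of marker levels and of GC content in these correlations was not tested.

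By the same centred correlation, the genes most like each receptor among 12205 others were found, and these values are given as a description over 19 libraries that share their depth and dissection. For Grm5 they were Pls3 (r = 0.97), Gpd2 (0.96) and Gria2 (0.96), which encodes an AMPA receptor subunit. For Grm4 they were Kcnc1 (0.92), a fast potassium channel gene, Arhgef10l (0.92) and Ccdc184 (0.92). For Grm2 they were Cplx3 (0.94), a complexin gene, Kcnc4 (0.94) and Gsg1l (0.94). Grm3 had the loosest match, with Rin2 (0.83), Lamp5 (0.82) and Fgf1 (0.81). Grm7 was most like Pcdh10 (0.95), Ipcef1 (0.94) and Afdn (0.94), and Grm8 most like Dnm3 (0.95), Inpp1 (0.94) and Ctps2 (0.92).

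The genes around the receptors were called about as often as genes in general, so their counts are given as a description. Of 72 tested genes in the lists of G proteins, second messenger enzymes, scaffolds, desensitisation, long-term depression effectors and the supply and removal of glutamate and N-acetylaspartylglutamate (NAAG), 1 was higher and 0 were lower in old control against young mice, where 1.32% and 1.34% of all genes were. The median log2 fold change of these genes was 0.05. In old anti-miR-mix against old control mice 0 passed in edgeR, with 8 at an unadjusted p under 0.05 (10.51% of all genes) and a median of -0.05. In old anti-miR-mix against young mice 4 were higher and 1 was lower (4.57% and 1.63% of all genes), with a median of -0.01. No gene of the adenylyl cyclase arm (10 genes), the scaffolds (15), desensitisation (10) or long-term depression effectors (7) passed in any of the 3 comparisons.

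Among the genes of the NAAG cycle, one that cleaves this neuropeptide was higher in both old groups. NAAG is an agonist of the Grm3 product. Naalad2 encodes a peptidase that cleaves NAAG, and it lay between 1.76 and 2.47 CPM in young, between 2.60 and 3.62 in old control and between 2.51 and 4.33 in old anti-miR-mix libraries. Both old groups lay wholly above the young one. Naalad2 rose in old control against young mice (log2 fold change 0.51, SE 0.12, adjusted p = 0.0294 in edgeR) and in old anti-miR-mix against young mice (0.65, SE 0.12, adjusted p = 0.0013). The age call was lost without young replicates 1 or 4 (adjusted p = 0.0612 and 0.0627) and without old control replicates 2, 3 or 4 (0.0666, 0.0660 and 0.0507). The microglia marker list also differed between these groups, with a log2 summed CPM of 7.95 to 8.30 in young, 8.27 to 8.50 in old control and 8.46 to 8.85 in old anti-miR-mix libraries. Of its 6 genes, 1 was higher in old control and 5 in old anti-miR-mix against young mice, and the part of these levels in the Naalad2 result was not tested.

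Rimklb encodes a NAAG synthetase, and it lay between 46.6 and 53.5 CPM in young, between 39.5 and 49.0 in old control and between 35.5 and 45.6 in old anti-miR-mix libraries. It fell in old anti-miR-mix against young mice (log2 fold change -0.23, SE 0.059, adjusted p = 0.0195 in edgeR), and these groups did not overlap. Without young replicate 6 the adjusted p was 0.0587. In old control against young mice its log2 fold change was -0.17 (adjusted p = 0.150 in edgeR). The other synthetase gene, Rimkla, and the other peptidase gene, Folh1, did not pass in any of the 3 comparisons.

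**Figure D5:**
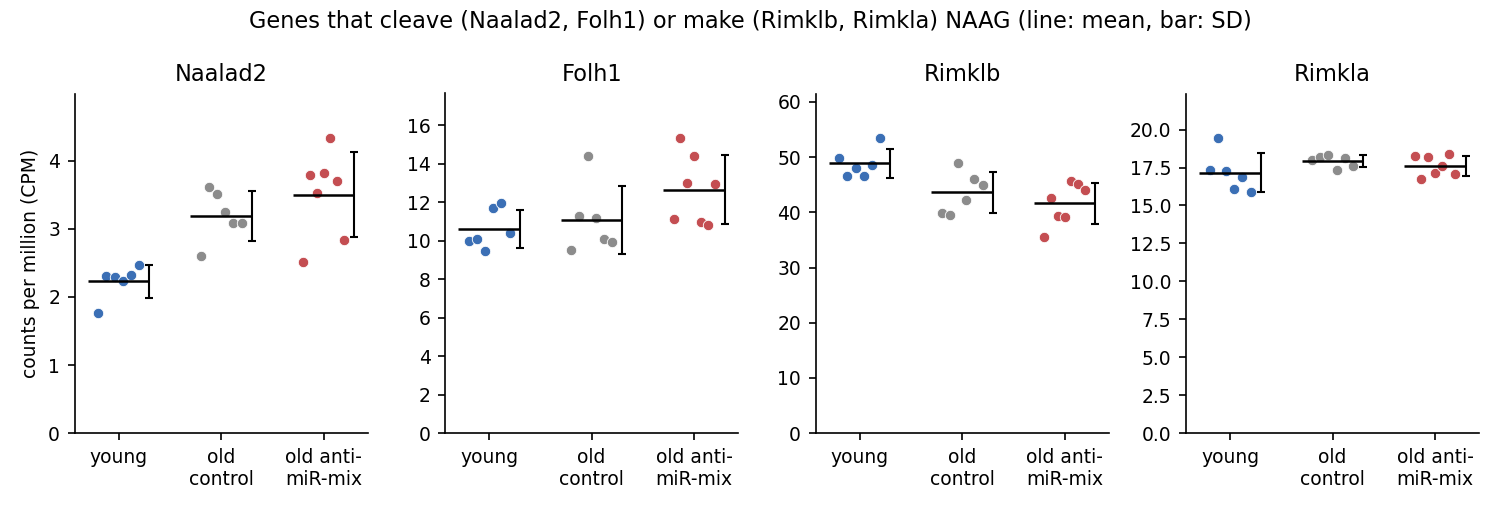
CPM of 4 genes of the NAAG cycle (vertical axes, each starting at 0) in every library of the 3 groups, with the mean as a line and the SD as a bar. All points of Naalad2 in both old groups lie above the highest young point of 2.47 CPM, and all Rimklb points of old anti-miR-mix libraries lie below the lowest young point of 46.6 CPM.

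The remaining calls against young mice were 1 each in the lists of glutamate supply and removal, the phospholipase C arm and the G proteins. Slc1a3, the glutamate transporter of astrocytes, rose in old anti-miR-mix against young mice (log2 fold change 0.20, SE 0.046, adjusted p = 0.0119 in edgeR). Slc1a3 is itself in the astrocyte marker list, whose log2 summed CPM was 10.53 to 10.9 in young, 10.8 to 11.0 in old control and 10.8 to 11.3 in old anti-miR-mix libraries. Plcb3, a phospholipase C of the Gq arm, rose in the same comparison (0.20, SE 0.040, adjusted p = 0.0037). In old anti-miR-mix against old control mice Plcb3 had the lowest p of the lists, with a log2 fold change of 0.15 (adjusted p = 0.0985), and it passed without old anti-miR-mix replicate 1 (0.0284). Gnai1, which encodes a Gi subunit, was next with -0.11 (adjusted p = 0.298). Gnai2, another Gi subunit gene, rose in old anti-miR-mix against young mice (0.15, SE 0.040, adjusted p = 0.0301), but not without young replicates 1, 2 or 6 or old anti-miR-mix replicates 2, 4 or 7, where its adjusted p lay between 0.0503 and 0.0735.

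Homer1, which encodes the scaffold that holds class I receptors at the synapse, was singled out after its values were seen. Reads were counted per gene, so different forms of the Homer1 transcript cannot be told apart. It had a log2 fold change of -0.49 in old control against young mice (SE 0.15, adjusted p = 0.0757 in edgeR) and of -0.41 in old anti-miR-mix against young mice (adjusted p = 0.0900). Its highest library was young replicate 4, at 261 CPM against 118 to 151 CPM in the other young libraries. Without that library the values were -0.28 (adjusted p = 0.188) and -0.21 (adjusted p = 0.264).

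Markers of other cells in the tissue differed between the groups, and in bulk tissue fewer cells of a type and less RNA per cell cannot be told apart. Beside the lower Grm4, the oligodendrocyte list (5 genes) had a log2 summed CPM of 12.7 to 13.4 in young, 12.5 to 12.8 in old control and 12.6 to 13.1 in old anti-miR-mix libraries, and 3 of its 5 genes were lower in old control mice. The oligodendrocyte precursor list stood at 7.44 to 7.60, 7.11 to 7.32 and 7.22 to 7.41 in the same order. In old control mice 1 of its 4 genes was lower, namely Gpr17 (log2 fold change -0.91). The others did not fall, with Pdgfra at 0.05, Cspg4 at 0.007 and C1ql1 at 0.085. In the CA3 list 1 of 4 genes was lower (Coch, -0.94), and in the dentate list 1 of 5 was higher (Calb1, 0.42), in old control against young mice. The other dentate genes went the other way, between -0.67 (Dsp) and -0.065 (Prox1), and none passed. Of the other CA3 genes, Bok and Iyd were at -0.14 and -0.36 and Grik4 at 0.05, and none passed. The summed level of the thalamus list overlapped between groups (6.26 to 6.65, 6.32 to 6.62 and 6.22 to 6.80), and so did the pan-neuronal (12.2 to 12.3, 12.2 to 12.3 and 12.1 to 12.2), inhibitory neuron (9.80 to 9.88, 9.86 to 9.94 and 9.72 to 9.99) and endothelial lists (6.64 to 6.86, 6.73 to 6.88 and 6.68 to 6.95). The medians of the thalamus list were 6.625, 6.353 and 6.527. Its lowest young library was replicate 2 at 6.257, against 6.573 to 6.647 in the other young libraries. That library was also the lowest young one for Grm4, Grm2, Grm7 and Grm8, and the highest young one for Grm5. In old anti-miR-mix against young mice, where Grm4 was also called, single genes of the marker lists passed in edgeR. Stmn2 of the pan-neuronal list (log2 fold change -0.15, adjusted p = 0.0398), Wfs1 of the CA1 pyramidal list (-0.36, adjusted p = 0.0366) and Gpr17 of the precursor list (-0.69, adjusted p = 1.6e-05) were lower, and Prkcd of the thalamus list (0.50, adjusted p = 0.0113) was higher. The other pan-neuronal genes were also lower without passing, between -0.16 (Tubb3, adjusted p = 0.0510 in edgeR) and -0.03 (Snap25). In the thalamus, precursor and CA1 lists most other genes went the other way without passing. The other thalamus genes lay between -0.21 (Lef1) and -0.085 (Tcf7l2), and the other precursor genes between 0.05 (Cspg4) and 0.12 (C1ql1). In the CA1 list Fibcd1, Pou3f1 and Man1a were at 0.19, 0.09 and 0.14, and Mpped1 was at -0.02. The summed level of the CA1 pyramidal list was 9.69 to 10.1 in young, 9.78 to 10.1 in old control and 9.503 to 10.1 in old anti-miR-mix libraries. Gfap of the astrocyte list was also higher in old anti-miR-mix against young mice (0.77, adjusted p = 0.0012 in edgeR). Between the old groups, C1qa (0.63, adjusted p = 0.0259) and Csf1r (0.32, adjusted p = 0.0276) of the microglia list were higher in treated mice. The 5 oligodendrocyte genes had a median of 0.25 there, each with an unadjusted p under 0.05, but none passed. Choroid plexus markers were low and uneven (0.46 to 6.46 over all libraries), with some at 0 reads in single libraries, and no gene of any list was at 0 throughout a group. The part of these levels in the Grm4 result was not tested.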

How the data were processed

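Per the labels, TruSeq libraries were made from microdissected CA1, which the study's text calls dorsal hippocampal tissue. The authors sequenced single-end reads of 50 bases, aligned them to mm10 with STAR (2.5.2b) and counted reads per gene with featureCounts (Subread 1.5.1). Strand and multi-mapping options are not given in the sources used here. The deposited files held raw counts for 48709 genes per library, and a table that the authors had transformed to log2 values for 18761 genes. Checked against the counts, each log2 value was log2(CPM + 1) less a gene's slope times a library number of 1 to 4 (within 3.4e-08). These numbers, whose source is not described, are called processing groups. Young libraries numbered 1, 1, 2 and 2 in groups 1 to 4, old controls 2, 2, 0 and 2, and treated old libraries 1, 2, 3 and 1. Of the per-sample columns, 0 were left unassigned.

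Groups followed the descriptions of the libraries. Titles of the control groups also carry the experiment's name, anti-miR-mix. The replicates are separate libraries of one group, and p-values measure the spread between them. The 19286 genes that reached 5 reads in 50% or more of the libraries were tested with edgeR 4.0.16 (R 4.3.3, TMM, quasi-likelihood test, all 19 libraries in one fit with 3 groups), with Benjamini-Hochberg adjustment over all of them and a threshold of 0.05. Log2 CPM used a prior count of 2, and intervals cover 95%. The fit was tested on simulated data. Alternatives were DESeq2 1.42.0, other size factors, no filter, only the groups compared and a replicate block. The processing group was also used as a factor, and its number as a linear term. Further alternatives were merged old control libraries, limma 3.58.1 on the deposited log2 values, and each library left out. Coordinates, exon lengths and 3′UTRs came from GENCODE M21 (GRCm38), which may differ from the authors' annotation. The receptors and the lists were chosen with earlier results of these data known. All receptors were named. Of the other lists, up to 4 higher and 4 lower genes past the threshold were named per comparison, or the 2 with the lowest p. The replicate numbers did not pair the libraries. Some items of the lists are not reported here.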

Additional observations from a re-analysis of the deposited data

Results flagged for a closer look

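Of 18 sets of values (6 receptors in 3 groups), 1 held a library far from the rest. Grm2 in young replicate 2 was at 5.22 log2 CPM, against 5.95 to 6.20 in the other 5 young libraries, and its gap to the nearest of them was 0.747 of the whole range. Chance alone flags about 1 in 20 such sets. Without this library the log2 fold change of Grm2 in old control against young mice was -0.46 (adjusted p = 0.0511 in edgeR) in place of -0.35 (adjusted p = 0.220).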

How the results depend on the processing

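The number of receptors called in old control against young mice was 1. It was 0 with the processing group as a factor and 0 with old control replicates 5 and 6 as 1 library, and between 0 and 1 when each library was left out. It was 1 with the processing number as a linear term and 1 with limma on the deposited log2 values. In old anti-miR-mix against old control mice it was 0 under all of these settings. In old anti-miR-mix against young mice it was 1, then 0 with only the groups compared, and between 0 and 2 when each library was left out. The cause of these shifts was not tested, other than that leaving out a library, merging 2 or dropping a group leaves fewer samples. The fits with the replicate block called 1, 0 and 1 receptors. Deviations of libraries with the same number correlated between -0.17 and 0.21, so the numbers do not pair the libraries, and the block ended only the Gnai2 call (adjusted p = 0.0684). The Gnai2 call was also lost with no filter (0.0681) and with only the groups compared (0.0760). Homer1 passed in old anti-miR-mix against young mice with the processing group as a factor (0.0437). Small fold changes that were not called changed sign. With the processing group as a factor, Grm8 was at 0.0057 and Homer1 at -0.097 in old anti-miR-mix against old control mice. With each library left out, log2 fold changes ranged from -0.072 to 0.014 for Grm8 with age, and between the old groups from -0.022 to 0.135 for Grm2, -0.0031 to 0.041 for Grm3, -0.0038 to 0.094 for Grm4 and -0.091 to 0.0082 for Grm8. For Grm5 in old anti-miR-mix against young mice they ranged from -0.062 to 0.014. The 6 receptors had at least 418 reads in every library, while Grm6 could not be assessed at this depth.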
